A study of Mus musculus with 18 samples.

Results

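The genes described here encode 10 peptide hormones or neuropeptides of the gut, chosen by name: *Gcg*, *Pyy*, *Insl5*, *Nts*, *Cck*, *Tac1*, *Ucn3*, *Sct*, *Sst* and *Ghrl*. Each had 1 row among the 52636 gene rows of both deposited tables, so all 10 members were found. RNA was measured in 18 libraries of mouse colon epithelium. The sorted cells, 6 libraries, came from flow cytometry of the Olfr78-GFP line, in which a GFP-IRES-tauLacZ cassette replaces the coding exon of the olfactory receptor gene *Olfr78*. They were 2 GFP+ve pools of heterozygous mice (HE, Olfr78 GFP/+), 2 GFP+ve pools of homozygous mice (KO), each pool holding the cells of 2 mice, and 2 Epcam+ve samples of 1 wild-type mouse (WT). The mice used for sorting were 4 to 7 months old. The remaining 12 libraries each held the colon crypts of a single mouse. They came from 2 WT and 5 KO mice of the same line, and from 3 eControl and 2 eKO mice of a line with a floxed *Olfr78* coding exon and Cre under the promoter of *Vil1*, a gene of intestinal epithelial cells. In the paper, eKO mice are Vil1 Cre/+ with Olfr78 fx/fx. The controls it names for this line are of either kind, Vil1 +/+ with Olfr78 fx/fx (no Cre) or Vil1 Cre/+ with Olfr78 +/+ (Cre without a floxed allele). The ages of these mice were not given in the sources used here. HE cells keep 1 intact copy of *Olfr78*, and GFP marks the cells in which the locus is transcribed, so neither GFP+ve group is wild type while the Epcam+ve samples are. The libraries of Epcam+ve cells carry a GFP-ve title and an enteroendocrine subtype label, but they came from a mouse without GFP and their markers were those of the whole epithelium.

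Peptide hormones of the gut are made by enteroendocrine cells, scattered secretory cells of the epithelium that release them on the blood side in answer to food, microbial metabolites or stretch. In the colon the main types are the L cells, which make the proglucagon peptides (*Gcg*), peptide YY (*Pyy*) and insulin-like peptide 5 (*Insl5*), and the enterochromaffin (EC) cells, which make serotonin and often substance P (*Tac1*) or secretin (*Sct*). D cells make somatostatin (*Sst*), which restrains the other endocrine cells. *Nts* (neurotensin) and *Cck* (cholecystokinin) are made mainly further up the gut by cells related to L cells, *Ghrl* (ghrelin) is above all a hormone of the stomach, and *Ucn3* (urocortin 3) is known from some EC cells and the pancreas. In bulk RNA, fewer cells of a type and less RNA per cell cannot be told apart.

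Sequence is shown for 4 members on either side of the gates, an L cell and an EC cell peptide with high values in GFP+ve cells (*Pyy* and *Tac1*) and a pair without a read in the HE pools (*Nts* and *Sst*). Each line gives the 250 bases before the RefSeq start (GRCm38.p6, 5′ to 3′ in the direction of the gene), and where a gene has more than 1 start, the one nearest to the GENCODE gene end was taken. Capitals mark the letters CANNTG, the core of an E-box as bHLH factors of endocrine cells read it, and TGACGTCA, the full cAMP response element.
Pyy: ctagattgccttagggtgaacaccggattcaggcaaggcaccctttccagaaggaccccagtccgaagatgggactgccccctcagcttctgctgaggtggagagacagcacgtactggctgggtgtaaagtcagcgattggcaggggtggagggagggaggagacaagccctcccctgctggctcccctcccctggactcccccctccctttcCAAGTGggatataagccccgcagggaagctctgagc
Tac1: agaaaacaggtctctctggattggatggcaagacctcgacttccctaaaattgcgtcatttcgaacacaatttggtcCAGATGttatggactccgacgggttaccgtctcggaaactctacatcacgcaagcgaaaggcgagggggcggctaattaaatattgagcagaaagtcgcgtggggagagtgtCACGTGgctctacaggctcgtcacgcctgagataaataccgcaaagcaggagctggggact
Nts: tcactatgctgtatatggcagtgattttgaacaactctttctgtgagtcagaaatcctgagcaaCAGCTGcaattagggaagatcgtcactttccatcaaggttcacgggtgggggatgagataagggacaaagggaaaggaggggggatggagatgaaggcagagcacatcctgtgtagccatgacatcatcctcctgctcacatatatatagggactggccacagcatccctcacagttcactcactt
Sst: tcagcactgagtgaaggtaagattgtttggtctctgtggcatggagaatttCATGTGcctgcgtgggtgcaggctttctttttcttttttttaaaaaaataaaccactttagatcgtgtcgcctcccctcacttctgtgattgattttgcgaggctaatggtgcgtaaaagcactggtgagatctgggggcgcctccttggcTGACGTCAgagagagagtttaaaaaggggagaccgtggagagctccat

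The windows lie at chr11:102107833-102108082 (minus strand) for *Pyy*, chr6:7554811-7555060 (plus strand) for *Tac1*, chr10:102490419-102490668 (minus strand) for *Nts* and chr16:23890845-23891094 (minus strand) for *Sst*. All 10 members held at least 1 CANNTG in this window, as did 66.2% of the 32851 RefSeq windows of the same length, so these letters do not set the members apart. TGACGTCA was found in 1 of the 10 members, *Sst*, where it begins 48 bases before the start, and in 1.55% of all windows. TATAAA, searched on both strands like the others, was found in 3 of 10 members (*Gcg*, *Insl5* and *Sct*) and in 12.4% of all windows. A match describes the letters and not the binding of a factor. All 10 are protein-coding genes. In GRCm38 coordinates of the GENCODE genes they lie at chr2:62474530-62483650 (*Gcg*), chr11:102106676-102107832 (*Pyy*), chr4:103017872-103026842 (*Insl5*), chr10:102481756-102490486 (*Nts*), chr9:121489824-121495694 (*Cck*) and, for the rest, at chr6:7554879-7565834 (*Tac1*), chr13:3940688-3945349 (*Ucn3*), chr7:141278330-141279133 (*Sct*), chr16:23889573-23890958 (*Sst*), chr6:113716119-113719880 (*Ghrl*).

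Values are CP20M, the reads of a gene scaled to 20000000 per library and rounded up. Depth set what could be seen: the sorted cells had 532702 (KO pool 1) to 2237474 reads on genes and the crypts 6175301 to 10995300, so that a single read stood for 1.82 to 3.24 CP20M in crypts, 8.94 to 13.3 in most sorted cells and 37.5 in KO pool 1. *Olfr78* itself, which marks the genotypes, had 4822 and 4401 CP20M in GFP+ve HE cells, 977 and 837 in GFP+ve KO cells, and 135 and 21 in Epcam+ve cells. In the crypts it ranged from 61 to 124 in the 5 WT and eControl mice and from 7 to 42 in the 5 KO mice. The eKO mice had 21 and 73, and the second of these lies within the range of the controls. The genotype field of this library, WT/HO, is also that of 1 eControl mouse (the other 2 have HE/WT and eKO mouse 1 HE/HO), so that it is called the library labelled eKO mouse 2, and the comparisons that rest on it are also given without it. If the field names the Cre allele first and the floxed allele second, WT/HO would be a mouse without Cre.

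The GFP+ve cells held a selected part of the peptide hormones (the plot of the sorted cells shows every value). *Tac1*, the precursor of substance P and neurokinin A, and *Sct*, the precursor of secretin, were higher in the HE pools than in the Epcam+ve samples by 70.9-fold and 37.7-fold. *Pyy* had a ratio of means of 33.7 to the Epcam+ve samples. *Insl5* had a ratio of pooled read rates of 256, which rests on 1 read in the Epcam+ve samples. Neither of these 2 genes passed the threshold. *Nts* and *Sst* went the other way, from 134 to 260 CP20M in Epcam+ve cells to no read at all in either HE pool. *Ghrl* was low in both, and *Cck* and *Ucn3* were at or near 0.

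**Figure D1:**
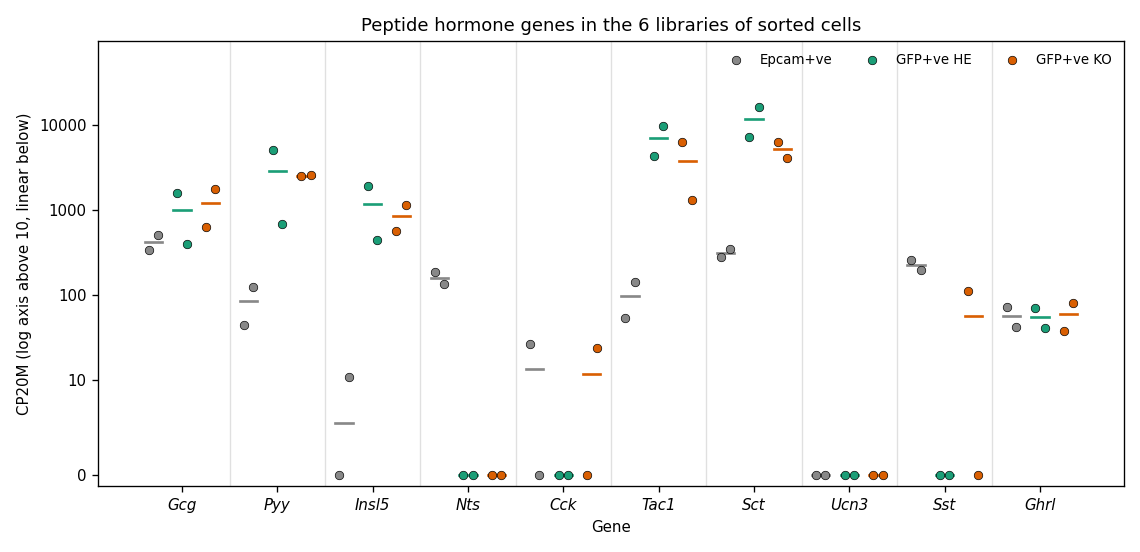
CP20M of the 10 peptide hormone genes in the 6 libraries of sorted cells, 1 point per library, with a short line at the mean of the 2 libraries of a group; the axis is logarithmic above 10 and linear below. *Tac1* and *Sct* lie above 1000 in all 4 GFP+ve pools and below 400 in Epcam+ve cells, while *Nts* is at 0 in all 4 pools.

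Among the members of EC cells, *Tac1* had 54 and 144 CP20M in Epcam+ve cells and 4327 and 9708 in GFP+ve HE cells. *Sct* had 278 and 350 in Epcam+ve cells and 7319 and 16336 in GFP+ve HE cells. For both genes the lowest HE pool was far above the highest Epcam+ve sample, and HE pool 2 was the higher of the pools. The log2 fold change was 6.03 for *Tac1* (SE 0.48, limma adjusted p = 0.000145) and 5.09 for *Sct* (SE 0.35, limma adjusted p = 6.2e-05). These were the 2 members called higher of 8 tested, with the threshold set at a log2 fold change past 2 with an adjusted p below 0.001, and 1.58% of the 16355 genes tested were called higher and 1.75% in either direction. Neither was called with a pseudocount of 1 or without a trend of the spread, and with all 6 sorted libraries in 1 fit only *Sct* was (adjusted p = 0.00196 for *Tac1* from limma). *Ucn3* had no read in any of the 6 libraries, which at a floor of 3 reads over the group allows up to 18.5 CP20M in GFP+ve HE cells.

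Among the members of L cells, *Pyy* had 5017 and 681 CP20M in GFP+ve HE cells against 45 and 124 in Epcam+ve cells. The groups did not overlap, but the HE pools differed by 7.37-fold from each other (log2 fold change 4.44 with a standard error of 0.83, limma adjusted p = 0.00723). *Insl5*, a relaxin-family hormone of colonic L cells, had 1899 and 441 CP20M in GFP+ve HE cells, that is 198 reads in all, against 1 read in the Epcam+ve samples. The ratio of the pooled read rates was 256, with an exact 95% interval from 45.4 to 10160 that covers counting error only (adjusted p = 0.00159 from limma). *Gcg*, whose product is cut into the incretin GLP-1 and into GLP-2 in L cells, had 1600 and 401 CP20M in GFP+ve HE cells and 340 and 504 in Epcam+ve cells. HE pool 2 thus lay between the Epcam+ve samples, and without HE pool 1 the log2 fold change of *Gcg* went from 0.94 to -0.045. edgeR's quasi-likelihood test on the recovered reads called 5 members, *Pyy*, *Insl5*, *Tac1* and *Sct* higher and *Sst* lower, in a fit that called 3.56% of genes higher, 1.08% lower and 4.64% in all.

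*Nts*, the precursor of neurotensin, had 188 and 134 CP20M in Epcam+ve cells (34 reads in all) and 0 in both HE pools. Its pooled rate in the Epcam+ve samples was 8.77 times a floor of 3 reads over the HE pools, a ratio that leaves out the counting error of the 34 reads. *Sst* had 260 and 196 CP20M in Epcam+ve cells (48 reads in all) and 0 in both HE pools, a ratio of 12.4 to the same floor. Neither passed the threshold in limma (adjusted p = 0.00376 for *Nts* and 0.00225 for *Sst*). Of the 8 members tested, 6 did not overlap between the groups, against 63.5% of all genes tested (30.4% higher and 33.1% lower), and 6 had an unadjusted p under 0.05, against 37.2%. For *Insl5*, *Nts* and *Sst* the lack of overlap was set by the filter, which they reached through a single group. The count therefore does not show how the members behaved. *Ghrl* had 72 and 42 CP20M in Epcam+ve cells and 70 and 41 in GFP+ve HE cells, a difference of -0.03 on the log2 scale (SE 0.64, limma adjusted p = 0.979). *Cck* had 27 and 0 CP20M in Epcam+ve cells and 0 in both HE pools, too few reads to be tested. The number of members called was 5 without HE pool 1, where 7.91% of all genes were called, and 5 without HE pool 2 (3.48%), and it was 3 without Epcam+ve sample 1 (2.39%) or sample 2 (2.05%). In each of these fits the spread comes from the group that keeps 2 libraries, and the Epcam+ve samples, being of 1 mouse, carry technical spread only.

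The KO pools were compared with the same Epcam+ve samples. *Tac1* had 6233 and 1302 CP20M in GFP+ve KO cells and *Sct* 6270 and 4044, against at most 350 in Epcam+ve cells. *Pyy* had 2516 and 2568 CP20M in GFP+ve KO cells, which were close to each other and above both Epcam+ve samples. *Insl5* had 564 and 1139, and *Gcg* 639 and 1767. The 5 genes lay above both Epcam+ve samples in both KO pools, while *Nts* again had no read (the Epcam+ve rate was 6.10 times the floor of the KO pools). *Sst* had 113 CP20M in KO pool 1, which stands for 3 reads, and 0 in KO pool 2. The Epcam+ve samples were higher in *Sst* by a ratio of 8.62 (exact 95% interval of counting error 2.78 to 43.3).

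None of the 8 members tested was called in the KO pools by limma, nor was any of the 15779 genes tested (0%), of which 2925 had an unadjusted p under 0.05. The log2 fold changes were 3.97 for *Sct* (standard error 0.33, adjusted p = 0.0175), 4.89 for *Pyy* (0.49, adjusted p = 0.024), 4.85 for *Tac1* (0.80, adjusted p = 0.0648) and 1.34 for *Gcg* (0.53, adjusted p = 0.262). *Insl5* rested on 113 reads against 1, a ratio of 210 (exact 95% interval of counting error 36.9 to 8358, limma adjusted p = 0.038). Of the 8 members, 7 did not overlap between the groups, against 54.9% of all genes tested (19.4% higher and 35.5% lower). For *Insl5* and *Nts*, which reached the filter through a single group, this was set by the filter. The edgeR fit had *Pyy* and *Sct* as higher, in a fit that called 0.19% of genes higher, 0.00634% lower and 0.196% in all. KO pool 1 had the fewest reads of all libraries, and without it limma called 6 members (*Gcg*, *Pyy*, *Tac1* and *Sct* higher, *Nts* and *Sst* lower) and 1.41% of all genes. Without KO pool 2 it called 4 members and 11.9% of genes, and without Epcam+ve sample 1 or 2 it called 4 members and 1.18% or 1.03% of genes. Without a KO pool the only spread left is the technical one of the Epcam+ve samples, and without an Epcam+ve sample it is that of the KO pools. The 2 comparisons with the Epcam+ve samples share those samples, so their results are not independent.

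**Figure D2:**
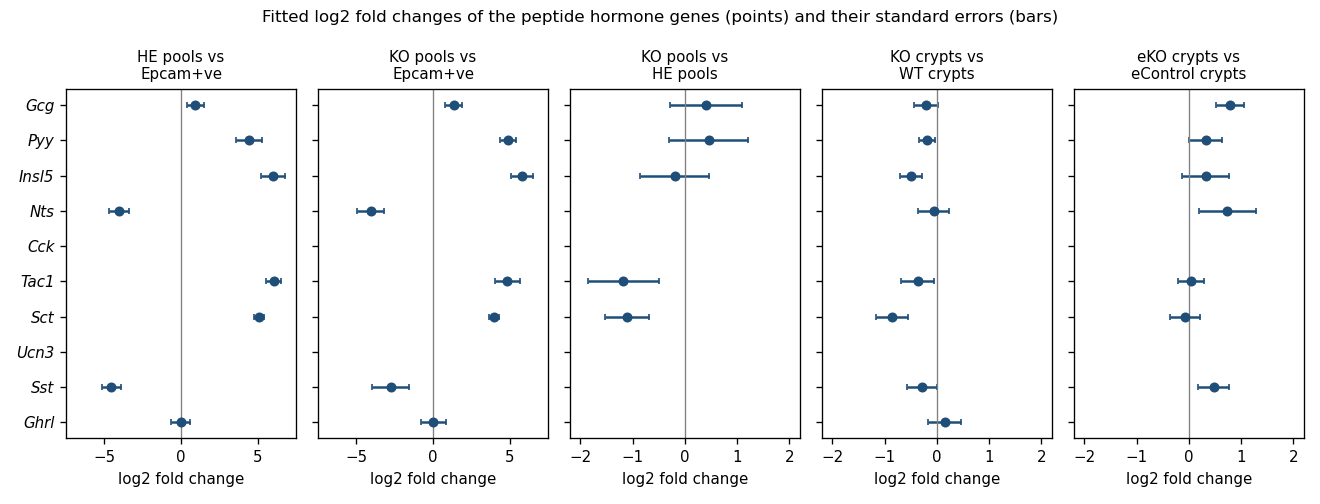
Log2 fold changes fitted by limma on log2(CP20M + 10), points, with their standard errors, bars, for each tested member in 5 comparisons; the scales of the first 2 panels are wider than those of the others. *Tac1*, *Sct*, *Pyy* and *Insl5* lie right of 0 and *Nts* and *Sst* left of it in both comparisons with the Epcam+ve samples, and the values of *Nts*, *Sst* and *Insl5* there depend on the number added, since a group is at or near 0.

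Whether loss of *Olfr78* changed the peptides of the marked cells was read from the KO pools against the HE pools, over the 11892 genes above 40 CP20M in all 4. At an adjusted p-value under 0.05, none of the 5 members that could be tested was called. The EC cell members *Sct* and *Tac1* had the lower means in the KO pools, by 2.29-fold and 1.86-fold, and the L cell members *Gcg*, *Pyy* and *Insl5* had ratios of means of 1.20, 0.892 and 0.728 (for *Pyy* the mean of the log2 values was the higher in the KO pools). *Sct* was the 1 member whose pools did not overlap, 7319 and 16336 CP20M in GFP+ve HE cells against 6270 and 4044 in GFP+ve KO cells (log2 fold change -1.12 with a standard error of 0.42, unadjusted p = 0.0282 and limma adjusted p = 0.931); 26.1% of all genes tested were likewise lower without overlap, and 8.91% higher. *Tac1* overlapped, since KO pool 1 lay between the HE pools (log2 fold change -1.18 with a standard error of 0.68, limma adjusted p = 0.931). For *Gcg*, *Pyy* and *Insl5* the log2 fold changes were 0.40, 0.45 and -0.19 with standard errors of 0.69, 0.76 and 0.66.

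No gene at all passed this test in limma (0%) or in edgeR, 503 (4.23%) had an unadjusted p under 0.05, and DESeq2 called 8 genes with no member among them. The methods of the study instead asked that the means lie more than 2 average standard deviations apart, with a ratio beyond 1.5-fold. No member met this, while 3.23% of genes did so upwards and 9.99% downwards, and *Sct* came nearest at -1.68 average standard deviations. Without KO pool 1, *Tac1* and *Sct* were called lower, with log2 fold changes of -2.31 (adjusted p = 0.00116 from limma) and -1.43 (adjusted p = 0.0298 from limma), and without KO pool 2 they were -0.06 and -0.80 and not called. The fit without KO pool 1 has a single KO pool, takes its spread from the HE pools alone and called 2.80% of all genes. Over all genes tested the median was -0.18 on the log2 scale, and -0.018 after median-of-ratios rescaling, where *Sct* had -0.96 and *Tac1* -1.02.

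The pools of 1 genotype differed from each other, with L cell and EC cell peptides on opposite sides in both genotypes. HE pool 1 was the higher of the HE pools in *Pyy* (7.37-fold), *Insl5* (4.31-fold) and *Gcg* (3.99-fold), and the lower in *Tac1* and *Sct*, for which HE pool 2 was 2.24-fold and 2.23-fold higher. KO pool 2 was the higher of the KO pools in *Gcg* (2.77-fold) and *Insl5* (2.02-fold), and KO pool 1 in *Tac1* (4.79-fold) and *Sct* (1.55-fold). *Pyy* alone among the 5 was level between the KO pools. *Etv1*, a transcription factor of L cells fixed as a marker outside the members, followed the L cell peptides, with 357 and 67 CP20M in GFP+ve HE cells and 113 and 221 in GFP+ve KO cells. *Tph1*, the enzyme of serotonin synthesis, and *Chgb*, a granule protein, followed *Tac1* and *Sct*, higher in HE pool 2 by 1.23-fold and 1.35-fold and in KO pool 1 by 1.87-fold and 1.68-fold. *Olfr78* moved by 1.10-fold and 1.17-fold between pools and *Ghrl* by 1.71-fold and 2.16-fold.

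**Figure D3:**
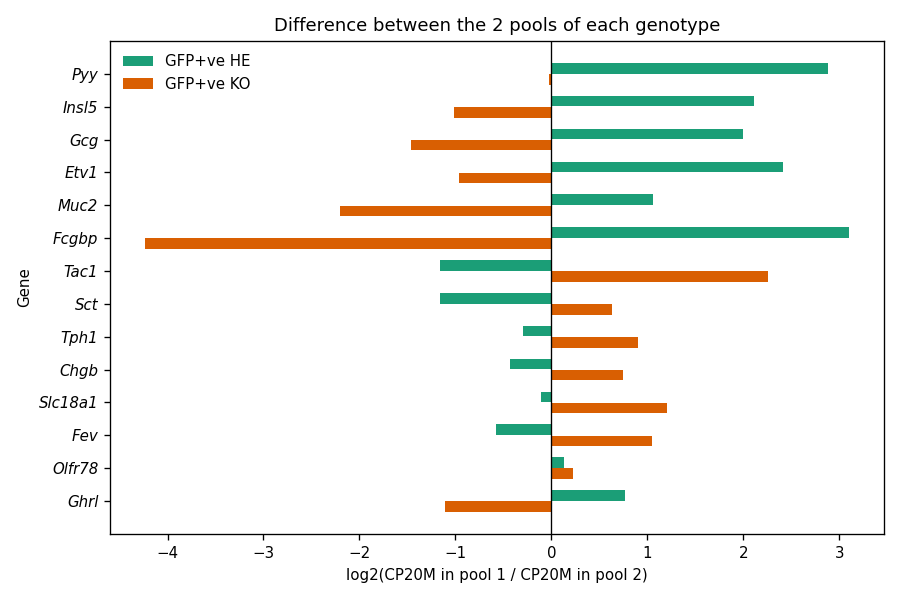
Log2 ratio of CP20M in pool 1 over pool 2 for 14 genes, 1 bar for each genotype (HE and KO). Bars right of 0 mean more in pool 1: *Insl5*, *Gcg*, *Etv1*, *Muc2* and *Fcgbp* point right for HE and left for KO, and *Tac1*, *Sct*, *Tph1* and *Chgb* point the other way.

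The genes set beside the peptides here were chosen after their values were seen. The markers of goblet cells, the mucus cells of the epithelium, moved with the L cell peptides. *Muc2*, the gel-forming mucin, had 111913 and 53833 CP20M in GFP+ve HE cells and 54740 and 252362 in GFP+ve KO cells, against 267309 and 217519 in Epcam+ve cells. All 7 goblet markers listed were higher in HE pool 1 than in HE pool 2 and higher in KO pool 2 than in KO pool 1, and their summed level ranged from 67369 to 148437 in GFP+ve HE cells, from 62440 to 333622 in GFP+ve KO cells and from 298515 to 348939 in Epcam+ve cells. The summed goblet level of KO pool 2 lay within the range of the Epcam+ve samples. Colonocyte markers also differed between the pools, so a difference of this kind was not particular to goblet markers. The summed level of the 7 colonocyte markers ranged from 78452 to 98500 in GFP+ve HE cells and from 33380 to 102003 in GFP+ve KO cells. In Epcam+ve cells it was 140722 to 163838. The part of other epithelial cells in the pool differences was not tested. For the tissue of each pool the labels say colon, with no region.

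Within a library, the L cell peptides stood in different proportions in the marked cells and in the epithelium. *Pyy* reached 1.45 to 3.94 times the CP20M of *Gcg* in the 4 GFP+ve pools, 0.132 and 0.246 times in the Epcam+ve samples, and 0.189 to 0.724 times in the 12 crypt libraries. *Insl5* reached 0.645 to 1.19 times the CP20M of *Gcg* in the GFP+ve pools, at most 0.0218 times in the Epcam+ve samples and 0.121 to 0.424 times in the crypts. Neither range of the GFP+ve pools overlapped that of the other libraries. *Insl5* against *Pyy* was 0.224 to 0.648 in the GFP+ve pools, 0 and 0.0887 in the Epcam+ve samples and 0.454 to 0.964 in the crypts, so that the GFP+ve pools overlapped the crypts and lay above the Epcam+ve samples. *Tac1* against *Sct* was 0.322 to 0.994 in the GFP+ve pools and 0.326 to 0.982 in the crypts, nearly the same span. These ratios compare libraries and not transcript numbers, since the genes differ in length.

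**Figure D4:**
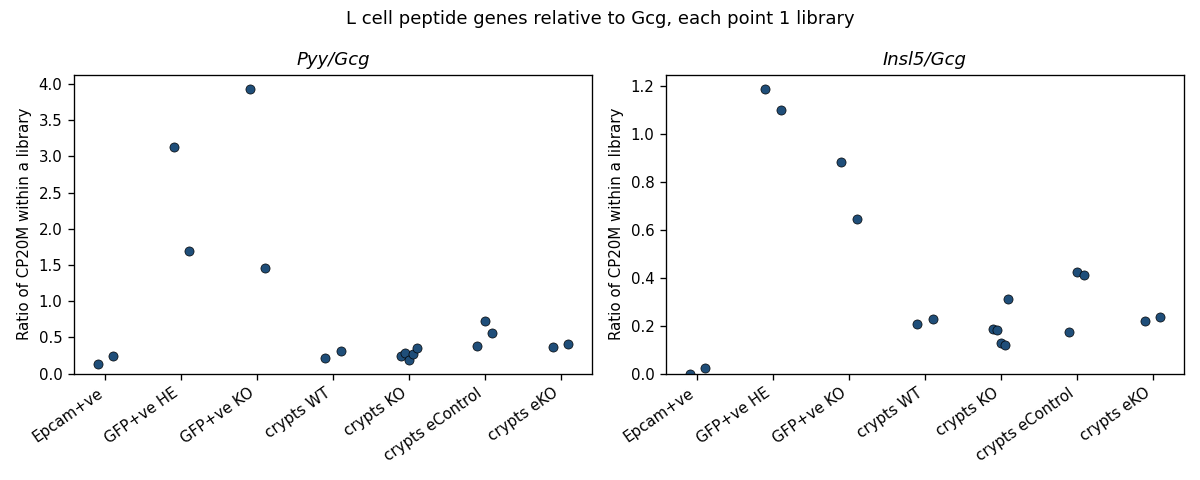
Ratio of the CP20M of *Pyy* (left) and of *Insl5* (right) to that of *Gcg* within each of the 18 libraries, 1 point per library, grouped as labelled. The 4 GFP+ve pools lie between 1.45 and 3.94 on the left and between 0.645 and 1.19 on the right, above all other libraries.

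Per kilobase of exon, on which genes can be set side by side, the order of the mean levels differed between the gates. In the Epcam+ve samples it was *Sct* (487 ± 78.9 CP20M per kb, SD, n = 2), *Sst* (316 ± 62.8), *Gcg* (282 ± 77.6), *Pyy* (134 ± 88.5) and *Nts* (129 ± 30.6), followed by *Ghrl*, *Tac1*, *Cck* and *Insl5* at 52.8 or less. *Sst* and *Gcg*, and *Pyy* and *Nts*, did not differ from each other beyond their spread. In the HE pools it was *Sct* (18337 ± 9885 CP20M per kb, SD, n = 2), *Pyy* (4515 ± 4859), *Tac1* (2065 ± 1119), *Insl5* (1616 ± 1424) and *Gcg* (670 ± 567), with *Ghrl* at 51.4. Only *Sct* above *Pyy* and *Gcg* above *Ghrl* were gaps larger than the spread there. The KO pools kept *Sct* (7995 ± 2440) and *Pyy* (4028 ± 58.3) in the first places, with *Insl5*, *Tac1* and *Gcg* after them. In the WT crypts *Gcg* came first (623 ± 102 CP20M per kb, SD, n = 2), then *Sct* (490 ± 121), *Pyy* (380 ± 40.3) and *Insl5* (278 ± 25.4), and all 10 members had reads in at least 1 WT crypt library.

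In the crypts all 10 members were read, and 1 member was called between genotypes. Over the 12 crypt libraries the CP20M ran from 366 to 1059 for *Gcg*, 175 to 396 for *Pyy*, 84 to 292 for *Insl5*, 51 to 265 for *Nts*, 105 to 371 for *Sct*, 66 to 198 for *Tac1*, 46 to 106 for *Sst*, 23 to 70 for *Ghrl*, 12 to 38 for *Cck* and 0 to 6 for *Ucn3*. The coefficient of variation lay between 27.5% (*Sst*) and 42.3% (*Nts*) for the 9 members other than *Ucn3*, whose counts were 0 to 2 reads. *Nts* and *Sst*, without a read in the HE pools, were read in all 12 crypt libraries.

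**Figure D5:**
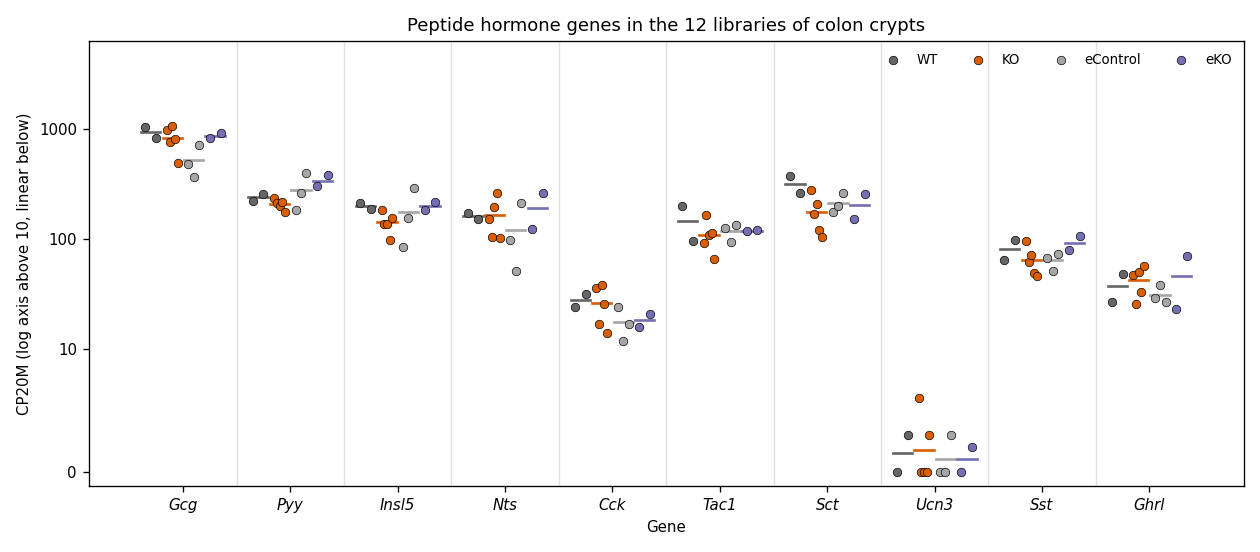
CP20M of the 10 peptide hormone genes in the 12 libraries of colon crypts, 1 point per mouse, with a short line at the group mean; the axis is logarithmic above 10 and linear below. The groups overlap for most genes; the 2 WT mice lie above all 5 KO mice in *Insl5*, and the 2 eKO mice above all 3 eControl mice in *Gcg* and *Sst*.

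In the KO crypts *Sct* was the 1 member called, and it was lower. It had 371 and 261 CP20M in the WT mice and 282, 169, 209, 122 and 105 in the KO mice. KO mouse 1 lay between the WT mice and the other 4 lay below both. The log2 fold change was -0.86 (SE 0.30, limma adjusted p = 0.101), a ratio of means of 1.78, which passed the study's threshold for crypts, a change beyond 1.5-fold with the adjusted p no higher than 0.2. The study applied that threshold with edgeR to the crypts of both lines together. In the fit of both lines here *Sct* was not called (limma adjusted p = 0.644). Between KO and WT crypts 1.53% of the 15975 genes tested were called lower, 7.95% higher and 9.48% in all, and edgeR called 2.08%, 8.19% and 10.3%. An unadjusted p under 0.05 was reached by 2 members (*Sct* and *Insl5*) and by 25.9% of genes. The call was lost without WT mouse 1 (log2 fold change -0.61, adjusted p = 0.474 from limma) and without WT mouse 2 (-1.11, adjusted p = 0.254 from limma), which leave 1 WT mouse whose spread is taken from the KO mice. Between these crypts 1 of the 7 non-member EC markers tested, *Chgb*, was called lower (adjusted p = 0.124 from limma), with a median log2 fold change of -0.15 over the 7. Of 3 peptide processing genes *Cpe* was called lower by limma (adjusted p = 0.194) and not by edgeR (adjusted p = 0.217), and the median of the 3 was 0.08, where all genes tested had 0.03. Lower were also 3 of 7 leukocyte markers tested, *Lyz2*, *Coro1a* and *Ptprc*. The summed level of the 10 leukocyte markers was 799 to 976 CP20M in the WT crypts and 470 to 749 in the KO crypts, and the part of such cells in the peptide values was not tested.

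*Insl5* had 214 and 188 CP20M in the WT mice and 183, 137, 136, 99 and 154 in the KO mice, so that all KO mice lay below both WT mice (log2 fold change -0.50 with a standard error of 0.21, limma adjusted p = 0.158). Its change was under 1.5-fold and it was not called, except without KO mouse 1 (log2 fold change -0.59, adjusted p = 0.0914 from limma). Of the 15975 genes, 13.1% were lower in KO without overlap and 31.3% did not overlap in either direction, and *Insl5* was the only one of the 8 members tested to be so. *Pyy* (222 and 258 CP20M in WT, 175 to 238 in KO with a median of 214), *Gcg* (1039 and 824 in WT, 494 to 1059 in KO with a median of 820) and *Tac1* (198 and 96 in WT, 66 to 166 in KO with a median of 110) overlapped between the genotypes. Their log2 fold changes were -0.20, -0.22 and -0.37 with standard errors of 0.16, 0.23 and 0.31. *Nts*, *Sst* and *Ghrl* gave -0.06, -0.29 and 0.15 with standard errors of 0.31, 0.28 and 0.31 (adjusted p = 0.55 to 0.919 from limma).

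In the floxed line none of the 7 members tested was called, and no gene of 15401 (0%), with 127 at an unadjusted p under 0.05, none called by edgeR and 6 by DESeq2. *Gcg* had 485, 366 and 713 CP20M in the eControl mice and 826 and 917 in the eKO mice. The groups did not overlap and the ratio of the eKO to the eControl mean was 1.67 (log2 fold change 0.78 with a standard error of 0.27, unadjusted p = 0.021 and limma adjusted p = 1.00). *Sst* did not overlap either, with 68, 51 and 74 in the eControl mice and 80 and 106 in the eKO mice (log2 fold change 0.47 with a standard error of 0.30), and 7.58% of all genes tested were higher without overlap. *Sct* had 175, 200 and 263 CP20M in the eControl mice and 151 and 259 in the eKO mice (log2 fold change -0.08 with a standard error of 0.29). *Insl5* had 84, 155 and 292 in the eControl mice and 182 and 217 in the eKO mice, and *Pyy* 185, 265 and 396 against 302 and 379, both with overlap. Without the library labelled eKO mouse 2, which leaves 1 eKO mouse whose spread is taken from the controls, the log2 fold change was 0.71 for *Gcg*, 0.29 for *Sst*, -0.45 for *Sct*, 0.20 for *Insl5* and 0.16 for *Pyy*, and no member was called, beside 0.0399% of genes.

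With both lines in 1 fit and the line as a covariate, none of the 8 members tested was called, beside 0.0243% of 16447 genes. *Sct* came nearest, at a log2 fold change of -0.50 (SE 0.25, limma adjusted p = 0.644), with 175 to 371 CP20M and a median of 261 in the 5 control mice and 105 to 282 with a median of 169 in the 7 KO and eKO mice. For the other 7 the log2 fold change lay between -0.18 (*Tac1*) and 0.30 (*Nts*). Without the library labelled eKO mouse 2 *Sct* had -0.72 (adjusted p = 0.572 from limma) and 0.196% of genes were called, and without eKO mouse 1 6.92%, with no member among them in either case. The genotype effect was also compared between the lines. The difference, floxed minus GFP line, was 1.00 for *Gcg* (standard error 0.40, unadjusted p = 0.0248 and adjusted p = 0.557 from limma), 0.78 for *Sct* (0.48, adjusted p = 0.607) and 0.82 for *Insl5* (0.50, adjusted p = 0.604), and no member was called, beside 0.0304% of genes. Without the library labelled eKO mouse 2 the share of genes called was 26.3%, still with no member among them, and the differences were 0.92 for *Gcg* (adjusted p = 0.222 from limma), 0.41 for *Sct* and 0.70 for *Insl5*. The lines were deposited and scaled as separate tables, so line and table cannot be told apart.

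Enzymes that cut and finish peptide hormones were higher in the HE pools than in the Epcam+ve samples. Of the 5 on the list, 3 were tested in the HE pools and all 3 were called higher, where 1.58% of all genes tested were. *Cpe*, the carboxypeptidase of secretory granules, had 9988 and 9682 CP20M in GFP+ve HE cells and 108 and 124 in Epcam+ve cells (log2 fold change 6.29 with a standard error of 0.21, limma adjusted p = 3.25e-06). *Pam*, which amidates peptides such as substance P and PYY, had 13463 and 14575 against 1636 and 1470 (log2 fold change 3.17 with a standard error of 0.17), and *Pcsk1*, the convertase that makes GLP-1 from proglucagon, had 4937 and 4148 against 653 and 607 (log2 fold change 2.83 with a standard error of 0.20). *Pcsk2*, the convertase that makes glucagon in the pancreas, had 1 read in the 6 sorted libraries, 12 CP20M in KO pool 2, and *Mboat4*, which acylates ghrelin, had none. In the KO pools *Cpe* had 7434 and 3266 CP20M, *Pam* 9462 and 6206 and *Pcsk1* 2854 and 1767, all below both HE pools, and none was called (adjusted p = 0.931 for each from limma). Of all genes tested between these pools, 26.1% were likewise lower in KO without overlap.

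Of the 25 receptors of the members' peptides, 10 could be tested in the HE pools and 2 were called higher, none lower. Of all genes tested there, 1.58% were called higher and 0.171% lower. *Glp1r*, the receptor of GLP-1, had 817 and 1267 CP20M in GFP+ve HE cells and 9 and 21 in Epcam+ve cells (log2 fold change 5.40 with a standard error of 0.52, limma adjusted p = 0.000391). *Npy1r*, which binds neuropeptide Y and PYY, had 1807 and 3161 against 81 and 144 (log2 fold change 4.34 with a standard error of 0.38, limma adjusted p = 0.000258). The KO pools had 1803 and 489 CP20M of *Glp1r* and 2253 and 581 of *Npy1r*, higher in KO pool 1, as *Tac1* was. The median log2 fold change of the 10 receptors was 2.99, where that of all genes tested was -0.05. Genes could enter this test through the HE pools alone. *Gcgr*, *Cckar* and *Sstr5* did so, with no read in the Epcam+ve samples. So did *Rxfp4*, *Sstr3* and the called *Glp1r*, with at most 36 CP20M there. The median is therefore partly set by the filter and does not show how the receptors behaved as a group. No receptor was called in the crypts of either line.

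Of 64 other peptide precursors, 13 could be tested in the HE pools, 1 was called higher and 1 lower, and the median log2 fold change was -0.13. Over all genes tested, 1.58% were called higher and 0.171% lower. *Iapp*, the precursor of amylin, had 1773 and 7788 CP20M in GFP+ve HE cells against 0 and 11 in Epcam+ve cells (adjusted p = 0.000254 from limma), and 2178 and 1070 in GFP+ve KO cells. It was higher in HE pool 2 and in KO pool 1, as *Tac1* and *Sct* were. *Iapp* reached the filter of the HE test through the HE pools alone. *Edn1*, the precursor of endothelin 1, had 196 and 94 CP20M in GFP+ve HE cells against 1457 and 1439 (log2 fold change -3.32 with a standard error of 0.38, limma adjusted p = 0.000868). In the KO crypts *Edn3* was called higher (log2 fold change 0.59, adjusted p = 0.199 from limma) and *Insl6* lower (-0.62, adjusted p = 0.184 from limma), both just inside the threshold of 0.2. Among all genes tested in these crypts, 7.95% were called higher and 1.53% lower.

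Markers fixed for other cell types were read beside these values. All 8 non-member EC markers were called higher in the HE pools, where 1.58% of all genes tested were called higher and 0.171% lower. *Fev* among them, with 9 and 11 CP20M in Epcam+ve cells, reached the filter through the HE pools alone. The summed levels of the 8 were 629470 to 825906 CP20M in GFP+ve HE cells, 254827 to 443327 in GFP+ve KO cells and 10349 to 10452 in Epcam+ve cells. Of the 6 non-member L cell markers only *Etv1* reached the filter, and the sum was 135 to 591 in GFP+ve HE cells and 84 to 90 in Epcam+ve cells, with *Gpr119* at 0 in the latter. Of the 10 markers of enteric neurons and glia, *Ret* and *Elavl3* were called higher in the HE pools and the sum was 2018 to 2167 against 157 to 225, while *Hand2*, *Sox10* and *S100b* had no read there. Of the 10 stromal markers *Vim* was called higher, while *Pdgfra* and *Col1a1* had at most 35 CP20M in GFP+ve HE cells. No goblet, leukocyte, tuft cell or general epithelial marker was called in the HE pools by limma. The median on the log2 scale was -1.72 for the 7 goblet markers and -1.87 for the 3 tuft cell markers tested, each of them at an unadjusted p under 0.05, as were 37.2% of all genes tested. edgeR called 1 tuft cell marker lower, and 1.08% of all genes. The 7 colonocyte markers had a median of -1.56, again all at an unadjusted p under 0.05, and the 1 called, *Krt20*, went the other way (log2 fold change 2.76, limma adjusted p = 6.2e-05). In the KO crypts 8 stromal markers were tested, with a median log2 fold change of -0.51. *Myh11*, of smooth muscle, was the 1 called by limma, and it was higher, while edgeR called 1 higher and 3 lower. Among all genes tested in these crypts, limma called 7.95% higher and 1.53% lower, and edgeR 8.19% and 2.08%. *Tac1* and *Sst* are also genes of enteric neurons. All sorted cells were gated on Epcam, a surface protein of epithelial cells. The part of neurons in the values of the sorted cells and of the crypts was not tested.

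For each of the 8 members with at least 40 CP20M in at least 2 of the 13 libraries of the Olfr78-GFP line, the genes of most similar pattern were sought by Pearson correlation of log2(CP20M + 10) over those 13 libraries. *Sct* was nearest to *Chgb* (r = 0.993), *Resp18* and *Chga*, and *Tac1* to *Cdk5r2* (r = 0.992), *Snap25* and *Nin*. *Pyy* was nearest to *Cmtm3* (r = 0.954), *Prox1os* and *Mir568*, *Insl5* to *Ldb1* (0.951), *Peg13* and *Zfp287*, and *Gcg* to *Tmsb15l* (0.889), *Tmsb15b2* and *Ubtfl1*, of which the first pair share sequence. *Nts* was nearest to *Mrpl32* (0.976), *Gpaa1* and *Ptger4*, *Sst* to *Nup155* (0.965), *Zfp367* and *Polr2h*, and *Ghrl* to *Gm14117* (0.802), *1500005C15Rik* and *Stra6*. An r above 0.9 was reached by 4.35% of genes with *Tac1* and by no gene with *Gcg* or *Ghrl*. The 4 GFP+ve pools stand apart from the other 9 libraries and are shallower than the crypts, so these values of r are descriptions of libraries that differ in level and in depth.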

How the data were processed

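The values come from 2 deposited tables of 52636 genes each, 1 for the 13 libraries of the Olfr78-GFP line and 1 for the 5 of the floxed line. STAR alignment to GRCm38 and HTSeq gene counts are the steps the methods name. For sorted cells the authors deposited these counts as a signal per gene, scaled to 20000000 per library and rounded up (CP20M). For crypts the authors deposited a score per gene, scaled and rounded in the same way. Both were tested alike. Whole reads were recovered from the steps of the values, and per library 99.84% to 99.99% of values gave whole reads.

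Groups follow the titles. The members and the gene lists were chosen with earlier results of these data known. limma 3.58.1 (R 4.3.3) was fitted across all genes on log2(CP20M + 10), a scale that understates the change of low genes, with a trend of the spread and Benjamini-Hochberg adjustment. Genes needed 40 CP20M, or 2 CPM, in 2 or more samples, or more than 40 in all 4 pools. Thresholds follow the study's methods, except that for KO against HE pools. The study applied its threshold for crypts to both lines together. The quasi-likelihood test of edgeR 4.0.16 (759 genes called in HE pools against Epcam+ve samples, where limma called 287) and DESeq2 1.42.0 on the recovered reads, other pseudocounts and filters, rescaling, no trend, 1 fit of all sorted libraries, the replicate block and leaving out each library were alternatives. The fits were tested on simulated data. Named were the members, list genes past a threshold (at most 4 per list, those with the smallest p), for each member the 3 genes of most similar pattern, and *Olfr78*. Intervals and floors (3 reads) cover counting error only, and p-values measure the spread between libraries, which for the Epcam+ve samples of 1 mouse is technical. Ratios to a floor leave out the counting error of the group with reads. Promoter windows are those of RefSeq (GRCm38.p6), exon lengths those of GENCODE. All columns of values were used. Some marker genes are not reported here by name.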

Additional observations from a re-analysis of the deposited data

Results flagged for a closer look

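*Pyy* and *Insl5* were picked out because their change on loss of *Olfr78* ran in opposite directions in the 2 mouse lines, each knockout library lying on 1 side of its control mean. For *Pyy* the ratio of the KO to the WT crypt mean was 0.87 and that of the eKO to the eControl mean 1.21. For *Insl5* the ratios were 0.705 and 1.13. The tests of the difference between the lines gave log2 differences of 0.51 for *Pyy* (SE 0.34, limma adjusted p = 0.623) and 0.82 for *Insl5* (0.50, adjusted p = 0.604 from limma), so neither passed. Without the library labelled eKO mouse 2, whose *Olfr78* value lay among the controls, the log2 fold changes in the floxed line were 0.16 for *Pyy* and 0.20 for *Insl5*, and the differences between the lines 0.36 (adjusted p = 0.579 from limma) and 0.70 (adjusted p = 0.463 from limma). No member had a crypt library far outside its group by Dixon's criterion in the KO crypts, the only group of 4 to 10 samples.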

How the results depend on the processing

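The number of members called was 2 in the HE pools against the Epcam+ve samples. It was 0 with a pseudocount of 1 and without a trend of the spread, 1 with all 6 sorted libraries in 1 fit, 4 with a pseudocount of 40 and 5 in edgeR, and 3 to 5 when a library was left out. In the KO pools against the Epcam+ve samples it was 0, and 1 with every gene above 0, 2 in edgeR, 3 in DESeq2, 4 with the replicate block and 4 to 6 when a library was left out. In the KO against the HE pools it was 0, and 0 to 2 when a library was left out. In the KO against the WT crypts it was 1, and 0 with every gene above 0, 0 with the replicate block and 0 to 2 when a mouse was left out. In eKO against eControl and over both lines it stayed at 0 in every alternative run. For the difference between lines it was 0, and 1 with the replicate block (*Gcg*, log2 difference 1.13, adjusted p = 0.182). The cause of these changes was not tested. Over all genes, 287 were called in the HE pools against the Epcam+ve samples, and 77 with a pseudocount of 1, 522 with one of 40, 0 without a trend, 117 in 1 fit of all sorted libraries, 523 with the replicate block, 759 in edgeR (76.8% of them higher, where limma had 90.2%) and 691 in DESeq2. Without HE pool 1 it was 1195, of which 35.8% were higher, and without HE pool 2 it was 523 (63.5%). In the KO pools against them 0 were called, and 31 in edgeR, 238 in DESeq2, 194 with the block and 153 to 1753 when a library was left out, the most without KO pool 2. In the KO against the HE pools it was 0, and 373 without KO pool 1. In the KO crypts 1514 were called, and 854 with a pseudocount of 40, 953 without WT mouse 1 and 546 without WT mouse 2. Over both lines 4 were called, and 9 in edgeR, 38 in DESeq2, 27 with the block, 1134 (88.9% higher) without eKO mouse 1 and 32 without the library labelled eKO mouse 2. For the difference between lines it was 5, and 616 without eControl mouse 1 and 4296 without the library labelled eKO mouse 2.

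Of 52 log2 fold changes of members, 12 values changed sign in settings other than leaving out a library, all of them small and not called. *Ghrl* in the HE pools against the Epcam+ve samples was 0.0025 with median-of-ratios rescaling, 0.0043 in edgeR and 0.0092 in DESeq2, and in the KO crypts -0.032 with the replicate block. *Nts* in the KO crypts was 0.0090 in edgeR. In the eKO crypts *Tac1* was -0.0098 in edgeR and -0.012 in DESeq2, and *Sct* 0.078 with the replicate block. Over both lines *Pyy* was -0.0045 with rescaling, -0.0028 in edgeR and -0.012 in DESeq2, and *Insl5* 0.21 with the replicate block. When a library was left out, 19 of the 52 changed sign at least once, each within these ranges. In the HE pools against the Epcam+ve samples the ranges were -0.045 to 1.92 (*Gcg*), -0.36 to 0.30 (*Ghrl*). In the KO pools against the Epcam+ve samples the ranges were -0.44 to 0.49 (*Ghrl*). In the KO against the HE pools the ranges were -0.58 to 1.39 (*Gcg*), -1.23 to 0.85 (*Insl5*), -0.98 to 1.88 (*Pyy*). In the KO crypts the ranges were -0.18 to 0.47 (*Ghrl*), -0.25 to 0.073 (*Nts*), -0.85 to 0.12 (*Tac1*). In the eKO crypts the ranges were -0.097 to 0.75 (*Insl5*), -0.45 to 0.29 (*Sct*), -0.11 to 0.12 (*Tac1*). Over both lines the ranges were -0.012 to 0.43 (*Ghrl*), -0.33 to 0.021 (*Insl5*), -0.090 to 0.15 (*Pyy*), -0.091 to 0.27 (*Sst*), -0.33 to 0.068 (*Tac1*). For the difference between lines the ranges were -0.46 to 0.82 (*Ghrl*), -0.084 to 0.89 (*Tac1*). Whether replicate numbers pair the libraries could not be settled with fewer than 3 pairs per comparison. Correlations of same-numbered deviations were 0.030 (HE and Epcam+ve), 0.023 (KO and Epcam+ve), -0.16 (KO and HE pools) and 0.061 and -0.10 (KO and WT crypts). For eKO and eControl they were 0.59 and 0.36. There the replicate block took the genes at an unadjusted limma p under 0.05 from 127 to 497. A pairing of the KO and HE pools with crossed numbers, chosen after seeing the data, called 85 genes, among them 2 members (*Sct* and *Tac1*), where the same-numbered block called 0. The depth of KO pool 1, 1 read for 37.5 CP20M, limits what its zeros show.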

Other observations

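*Ppy*, the gene of pancreatic polypeptide, was not in the rule for named genes and was chosen after its values were seen. It had 242 and 0 CP20M in GFP+ve HE cells and 0 and 337 in GFP+ve KO cells, no read in the Epcam+ve samples, and 0 to 29 in the crypts. Its reads lay in HE pool 1 and KO pool 2, the pools that were also the higher of their genotype in *Gcg* and *Insl5*. *Ppy* lies 5356 bases from *Pyy* on chromosome 11 (GRCm38, 102099930 to 102101319, minus strand) and is related to it in sequence. *Pdyn*, the precursor of dynorphins, also chosen after its values were seen, had 288 and 241 CP20M in GFP+ve HE cells, 0 and 163 in GFP+ve KO cells, and 9 and 0 in Epcam+ve cells.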
